A study of Mus musculus with 14 samples.

Results

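The genes described here are 9 cytokines that effector T-cells release: Il2, Il4, Il21, Ifng, Il10, Il17a, Il13, Lif and Csf2. They were found on one-colour expression arrays by an exact match of the gene name given to a probe, which took 11 of the 56605 probes other than controls, with 1 spot for each probe. The arrays measured total RNA of CD4+ T-cells, with 7 arrays of Roquin san/+ mice and 7 of wild-type mice. Roquin san/+ animals are heterozygous for the sanroque point mutation of Roquin-1, the product of Rc3h1, and carry it in the germ line, so that cells other than T-cells bear it too. The labels used here name genotype and cell type only, and mention neither stimulation nor treatment. Whether the genotypes differed in cytokine transcripts was the question the comparison addressed. RNA of whole cell preparations was measured, so fewer cytokine-producing cells and less transcript in each such cell cannot be told apart.

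Cytokines are secreted proteins by which helper T-cells instruct other cells, and each helper lineage is known by the ones it makes. Ifng marks Th1 cells, Il4 and Il13 mark Th2 cells, Il17a marks Th17 cells and Il21 is made by T follicular helper cells, which help B-cells in germinal centres. Resting T-cells hold few cytokine transcripts, many of which carry AU-rich stretches in their 3′ ends and are short-lived, and Roquin-1 is an RNA-binding protein that destabilises a set of T-cell mRNAs.

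The probes are 60-base stretches written in the sense of the mRNA, and their positions are those of the deposited files on mouse build mm9. Il4 and Il13 were probed 19.5 kb apart on chromosome 11, where the probes of Csf2 and Lif also lie. Il2 and Il21 were probed 97.2 kb apart on chromosome 3. Ifng was probed on chromosome 10, and Il10 and Il17a on chromosome 1. Il21 had 2 probes, 2.6 kb apart: the one nearer the 3′ end of the gene is listed for both RefSeq transcripts and the other for 1 of them. Il2 also had 2 probes, of which 1 spans a splice junction: its 60 bases are spread over 159 bases of the genome. The pentamer ATTTA, the core of AU-rich elements, was searched as written and was present in 5 of the 11 cytokine probes, those of Il10, Il17a, Ifng and Lif and the Il21 probe of both transcripts, against 8.08% of all 56605 probes. Searched on both strands, where it may be read as TAAAT, it was present in the same number of cytokine probes and in 17.0% of all probes. The following stretches of 30 bases are shown 5′ to 3′ because they are what was measured for the cytokines with a tested probe and for the other probes that hold the pentamer, which stands in capitals.
Il21, both transcripts, chr3:37121702-37121731, minus strand: tcatggcttcttATTTAagacctgatcata
Il21, 1 transcript, chr3:37124330-37124359, minus strand: aaatgcatttctttcacttccatgttgtgt
Ifng, chr10:117882871-117882900, plus strand: acccgaatgacaaataactcgctcATTTAt
Il4, chr11:53426106-53426135, minus strand: gtccaagtccacatcactgaaagacttcct
Lif, chr11:4172042-4172071, plus strand: aaaggggcctttATTTAttATTTAaaactt
Il10, chr1:132920962-132920991, plus strand: tctctccgaaatATTTAttacctctgatac
Il17a, chr1:20724408-20724437, plus strand: tactatttgtttATTTAaggttctctcctc

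Levels are given as log2 of the processed spot intensity minus the 75th percentile of the same array, so that a level of -3 lies 3 doublings under that percentile. Each array's scale is its own, and levels are compared between arrays and never between probes. On 2 arrays, wild-type replicate E and replicate G of the Roquin san/+ group, spots had been read 2 grid rows away from their probe names and were moved back. Their lowest values were 106 and 223 intensity units, against 2.96 to 8.17 on the other 12 arrays, so most of the dim cytokine probes had only that lowest value there, and their detection flags were left out of the filter and of all counts of detection. Those flags do enter the choice of the probes over which the 75th percentile was taken. Roquin san/+ replicate C was dim, with a 75th percentile of 801 units against 4898 to 13112 on the other 13 arrays. Slide 1 held 5 Roquin san/+ and 2 wild-type arrays, and on slide 2 these numbers were reversed. The 6 CD4 T-cell markers, Cd3d and Cd4 among them, were well above background on all 12 correctly gridded arrays. On Roquin san/+ replicate F the summed level of the B-cell markers (log2 of their added linear levels) reached 4.60, where those of its group's 5 other correctly gridded arrays ran from -1.32 to 1.30, and it also had the highest sums of the myeloid, NK, CD8 and erythroid lists. The CD4 T-cell sum of that array was the lowest of the 12, at 3.09. It was 3.22 on Roquin san/+ replicate C and 3.40 on wild-type replicate C, and the remaining correctly gridded arrays ran from 4.13 to 4.63.

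Ifng, Il4 and Il21 were the cytokines found on every correctly gridded array, Lif was missed on 1, and Il17a was found on none. Of the 11 probes, 3 were detected (well above background) on each of these 12 arrays, as were 42.9% of all probes, and 1 of 11 was detected on none of them, as were 16.0% of all probes. The Il21 probe of both transcripts, the Ifng probe and the Il4 probe were the 3. The Il21 probe of 1 transcript was detected on 6 of 6 Roquin san/+ arrays and on 4 of 6 wild-type arrays, being missed on wild-type replicates F and G. Lif was detected on 5 of 6 Roquin san/+ and 6 of 6 wild-type arrays, and the one it missed was the dim replicate C.

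The other cytokines were seen on some arrays of each genotype, with no regular split. Csf2, the granulocyte-macrophage growth factor, was detected on 3 Roquin san/+ and 5 wild-type arrays. Il10, which restrains inflammation, was detected on 3 Roquin san/+ and 4 wild-type arrays. The spliced probe of Il2, the growth factor of T-cells, was detected on 3 and 2 arrays, and its other probe on 0 and 1. Il13, a partner of Il4 in type 2 responses, was detected on 1 Roquin san/+ array and 2 wild-type arrays. By two-sided Fisher exact tests over these 12 arrays, with Benjamini-Hochberg adjustment over the 23289 probes seen on some but not all of them, 0.0% of probes differed in detection between the genotypes (9 at an unadjusted p below 0.05). Among the cytokines the lowest unadjusted exact p was 0.455, for the Il21 probe of 1 transcript, and 0.545 followed for Csf2. Over all of these probes the lowest exact p was 0.0152 and the lowest adjusted p was 1.0.

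**Figure D1:**
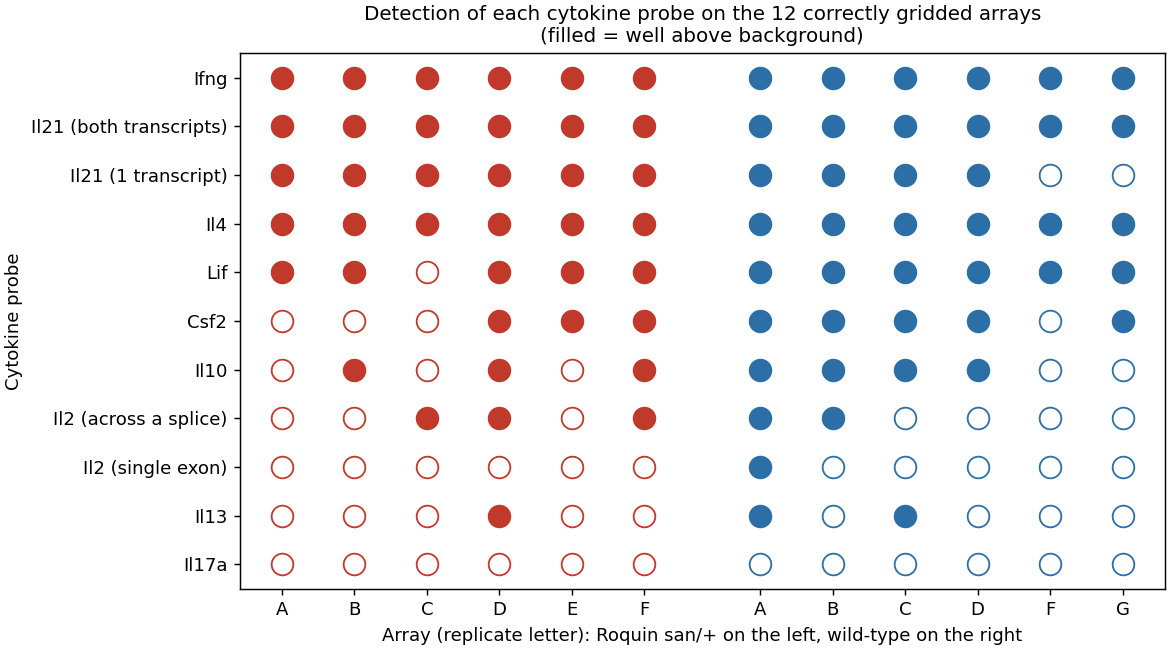
Detection of the 11 cytokine probes (rows) on the 12 correctly gridded arrays (columns, replicate letters; red Roquin san/+, blue wild-type). A filled circle means well above background: Ifng, Il4 and the Il21 probe of both transcripts are filled throughout and Il17a is open throughout.

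Of these cytokines Il17a was at the lowest value that the scanner software gives on 5 of 6 Roquin san/+ and 4 of 6 wild-type arrays, whereas Csf2 and Il2 were above it on all 12. Il17a ran from 3.16 to 7.85 units on the 6 correctly gridded Roquin san/+ arrays and from 3.41 to 9.03 on the 6 wild-type arrays. Il13 ran from 2.55 to 29.6 units in Roquin san/+ and from 8.35 to 25.6 in wild-type. Those ranges overlapped. As levels, the 6 and 6 arrays overlapped for all 11 cytokine probes (0 of 11 apart, beside 0.936% of the probes tested over these arrays). Only 5 of the 11 cytokine probes were tested, so these shares come from unlike sets. Csf2 ran from 7.41 to 26.8 units in Roquin san/+ and from 18.4 to 57.2 units in wild-type. Scaled to its own array, Csf2 lay at levels from -9.93 to -6.67 (median -8.34) and from -9.44 to -7.24 (median -8.04). Its highest Roquin san/+ level was on the dim replicate C, where it read 7.88 units and was not well above background. Il10 lay at levels from -9.53 to -7.09 (median -7.93) in Roquin san/+ and from -10.30 to -7.44 (median -8.34) in wild-type. On the arrays where Csf2 or Il10 was not well above background these levels follow the brightness of the array, and no order is read from them. The spliced Il2 probe lay at levels from -9.32 to -5.76 (median -8.53) in Roquin san/+ and from -9.40 to -8.16 (median -8.85) in wild-type, and its highest level was on the dim replicate C. These 5 cytokines did not pass the filter for a test of level, which asks for detection on all 6 correctly gridded arrays of at least 1 genotype.

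Il21, Ifng, Il4 and Lif passed that filter, with 5 probes among 28892 tested. The Il21 probe of both transcripts and those of Ifng and Il4 were detected on all 6 correctly gridded arrays of both genotypes. The other 2 passed through 1 genotype, the Il21 probe of 1 transcript through Roquin san/+ and Lif through wild-type, in each case the genotype with the higher fitted mean, so their differences are given as descriptions without a test. No cytokine was called different between the genotypes by limma with Benjamini-Hochberg adjustment, and 0.0% of all tested probes were. Before adjustment 3.81% of all tested probes and 0 of the 3 cytokine probes detected throughout had a p below 0.05. Over all tested probes the median difference, Roquin san/+ minus wild-type, was 0.07. When this comparison was simulated on 28892 probes, the fit recovered 36% of the probes given a log2 change of 1 and 79% of those given a change of 2, of 200 changed probes in all, and made 9 false calls. The simulated noise was normal and independent between probes and arrays. The real arrays share slides and include dim and displaced ones, so these shares need not hold for them.

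Il21 had the largest fitted difference of the 4 tested cytokines and, among the wild-type arrays, the widest spread. On the 6 correctly gridded Roquin san/+ arrays its probe of both transcripts lay at levels from -4.44 to -2.92, with a median of -3.60. On the 6 wild-type arrays it lay from -7.56 to -2.51, with a median of -4.72. Wild-type replicates C, F and G, at -7.04, -5.66 and -7.56, were below every Roquin san/+ array, whereas wild-type replicates A, B and D, at -3.79, -2.51 and -2.62, lay within or above the Roquin san/+ range. The displaced arrays were at -1.44 (Roquin san/+ replicate G, the highest of all 14) and -3.61 (wild-type replicate E). The mean was -3.36 ± 1.04 (SD, n = 7) in Roquin san/+ and -4.68 ± 2.07 (SD, n = 7) in wild-type. The difference of 1.32 (SE 0.79, 95% interval -0.37 to 3.01) did not pass limma's adjusted test (adjusted p = 0.865), and the two-sided exact permutation p over 3432 arrangements of the 14 arrays was 0.161. That interval reaches from 0.775-fold to 8.07-fold. Over the 12 correctly gridded arrays the difference was 1.18 (SE 0.84; limma adjusted p = 0.687).

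The Il21 difference was not the same on both slides. On slide 1 all 5 Roquin san/+ arrays were above both wild-type arrays, with a difference of 3.41, and the two-sided exact permutation p over 21 arrangements was 0.0476, the smallest such a design allows. After adjustment over all probes by limma that difference had a p of 0.498. Both values include the displaced Roquin san/+ replicate G, and without it the slide 1 difference was 2.97. On slide 2 the difference was 0.15 (exact permutation p = 1.0), with wild-type replicate C low and the other 4 wild-type arrays between -3.79 and -2.51. With slide as a block the difference was 1.78 (limma adjusted p = 1.0). Whether the effect differed between slides was not tested. The summed CD4 T-cell marker level was 3.40 on replicate C and 4.46 on both F and G, while wild-type replicates A, B and D had 4.13 to 4.55, and that of the myeloid markers was 4.91, 1.27 and 1.43 on C, F and G, against 0.77 to 3.52 on A, B and D. The B-cell sum was -0.89, -1.82 and -2.01 on C, F and G and -1.84, 2.64 and 0.35 on A, B and D, so that the arrays with the highest wild-type Il21, B and D, also had the highest B-cell sums. The part of other cells in the Il21 levels was not tested.

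The Il21 probe of 1 transcript was dim and showed less of this. It lay from -8.38 to -5.85 (median -7.78) in Roquin san/+ and from -8.47 to -7.42 (median -8.03) in wild-type over the 12 correctly gridded arrays, and both displaced arrays had only their lowest values. Its highest level on these 12 arrays was on the dim Roquin san/+ replicate C, where it read 13.9 intensity units, the lowest of the 12. In units the medians were 22.7 in Roquin san/+ and 34.9 in wild-type, the other order, so no order is read from these levels. Wild-type replicate C, which was low for the other Il21 probe, had the highest wild-type level here. The difference over 14 arrays, which counts the lowest values of both displaced arrays, was 0.39 (SE 0.48, 95% interval -0.64 to 1.42), with no test for the reason given above. Over the correctly gridded arrays without Roquin san/+ replicate C it was 0.15.

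**Figure D2:**
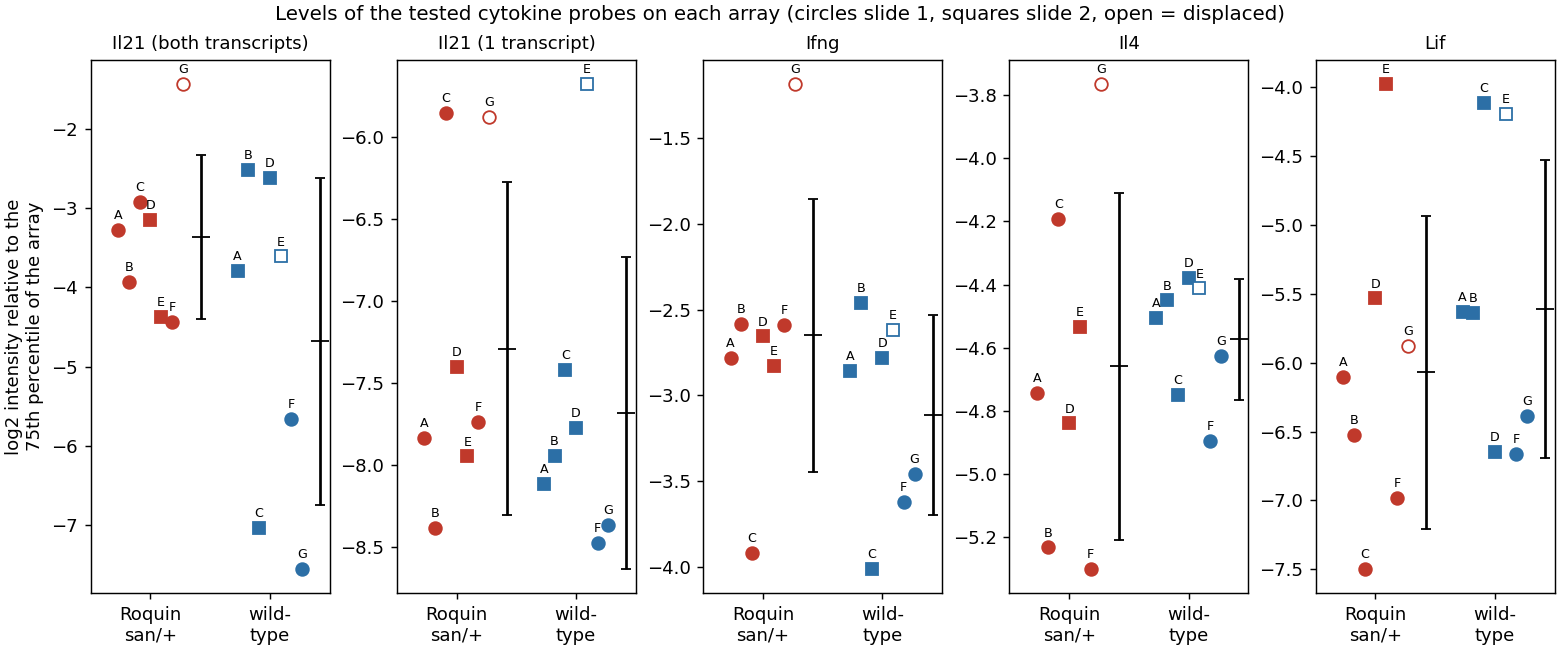
Level of each tested cytokine probe on each array (vertical axis, log2 of intensity relative to the 75th percentile of the array; a separate scale for each panel), with replicate letters, circles for slide 1, squares for slide 2, open symbols for the 2 displaced arrays, and the mean ± SD of 7 arrays as a bar. For Il21, wild-type replicates C, F and G lie between -7.56 and -5.66, under all 7 Roquin san/+ arrays.

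Ifng, which activates macrophages, varied over a narrower range than Il21. Over the correctly gridded arrays it lay from -3.92 to -2.58 (median -2.72) in Roquin san/+ and from -4.01 to -2.46 (median -3.16) in wild-type. The groups overlapped over almost the whole range, with replicate C lowest in each genotype and wild-type replicates F and G, at -3.62 and -3.46, next lowest. Replicate G of the Roquin san/+ group was highest of the 14 at -1.19, as it was for Il21. The mean was -2.65 ± 0.80 (SD, n = 7) in Roquin san/+ and -3.12 ± 0.58 (SD, n = 7) in wild-type. The difference of 0.47 (SE 0.35, 95% interval -0.28 to 1.22) did not pass (limma adjusted p = 0.865; two-sided exact permutation p = 0.261). Within slides it was 0.93 on slide 1 and 0.20 on slide 2.

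Il4 was the steadiest of the 4. In wild-type it stayed between -4.89 and -4.38 (median -4.57) on the 6 correctly gridded arrays, and in Roquin san/+ between -5.30 and -4.19 (median -4.79). The lowest Roquin san/+ levels were on replicates F and B, at -5.30 and -5.23, under all wild-type arrays, and the highest on the dim replicate C. The displaced arrays lay at -3.77 (Roquin san/+) and -4.41 (wild-type). The mean was -4.66 ± 0.55 (SD, n = 7) in Roquin san/+ and -4.57 ± 0.19 (SD, n = 7) in wild-type. The difference of -0.08 (SE 0.22; limma adjusted p = 0.967; two-sided exact permutation p = 0.712) had a 95% interval from -0.56 to 0.39, which is 0.677-fold to 1.31-fold. It turned to 0.01 without replicate B of the Roquin san/+ group and to 0.02 without replicate F.

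Lif, a cytokine of the IL-6 family, was high on few of the arrays. It lay from -7.50 to -3.98 (median -6.31) in Roquin san/+ and from -6.66 to -4.11 (median -6.01) in wild-type over the correctly gridded arrays. Replicate E of the Roquin san/+ group and replicate C of the wild-type group stood high, at -3.98 and -4.11, as did the displaced wild-type replicate E at -4.19. The lowest level was on the dim Roquin san/+ replicate C, where Lif was not well above background, and on Roquin san/+ replicate G it had only that array's lowest value. The difference of -0.46 (SE 0.54, 95% interval -1.62 to 0.70) is a description, since Lif passed the filter through wild-type alone. Its size and sign depended on the setting: it was -1.42 with quantile normalization, 0.21 with slide as a block and 0.02 over the correctly gridded arrays without replicate C of the Roquin san/+ group.

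**Figure D3:**
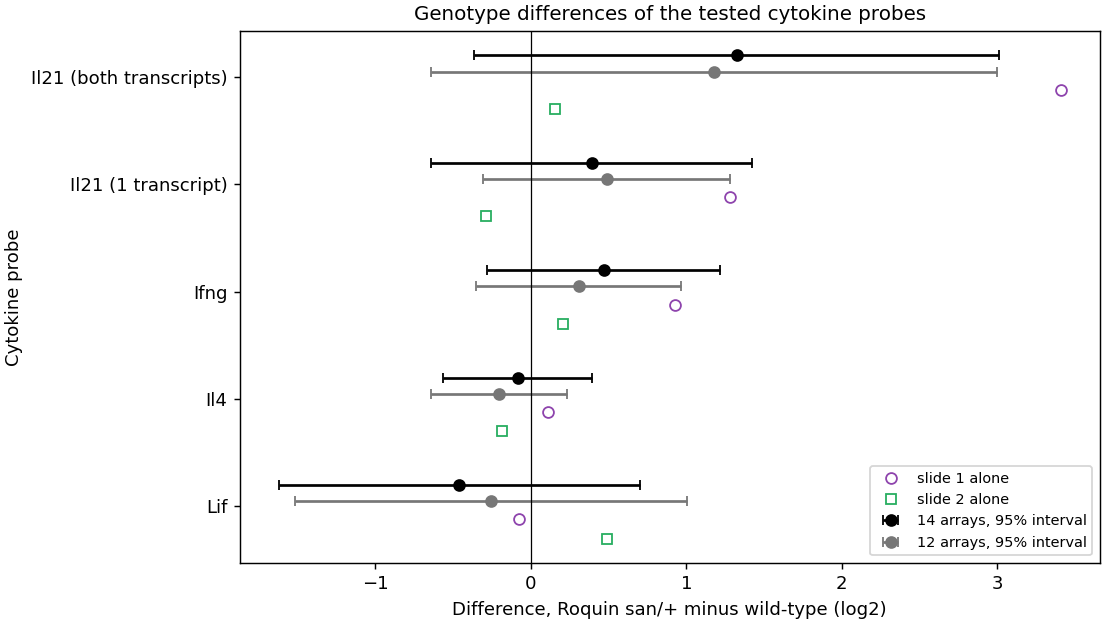
Differences between the genotypes (horizontal axis, log2, Roquin san/+ minus wild-type) for the 5 tested cytokine probes, with 95% intervals over all 14 arrays (black) and the 12 correctly gridded ones (grey), and the values within slide 1 (open circles) and slide 2 (open squares). The intervals of the Il21 probe of both transcripts, Ifng and Il4 span 0. The Il21 probe of 1 transcript and Lif passed the filter through 1 genotype, and their intervals are descriptions that are not read against 0. For the Il21 probe of both transcripts the slides give 3.41 and 0.15.

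The tested cytokines did not vary together as 1 group from array to array. Over the 12 correctly gridded arrays Il21 and Ifng had a Pearson r of 0.59 (Spearman rho 0.48), which fell to 0.27 without wild-type replicates C and G, the arrays farthest from the median of Il21. Within the wild-type arrays r was 0.90 (n = 6) and within Roquin san/+ it was -0.57 (n = 6), where the dim replicate C was high for Il21 and low for Ifng. By slide, r was 0.22 on slide 1 and 0.95 on slide 2. Of the 6 pairs of tested cytokines, this one had the highest Pearson r over all 12 arrays. Il4 and Il21 had an r of 0.27 and the highest rho, 0.58, and without the 2 arrays farthest from the median of Il4 their r was 0.47. Il4 and Ifng had an r of -0.30 (rho -0.21), with -0.83 in Roquin san/+ (n = 6) and 0.85 in wild-type (n = 6). Without the same 2 arrays, Roquin san/+ replicates B and F, it was 0.02 over the rest. Lif had an r between -0.26 and 0.09 with the other 3. These correlations rest on few arrays that share slide and brightness, and are descriptions.

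Among 15377 other named genes, those whose level followed Il21 most closely over the 12 correctly gridded arrays were Ascl2, a basic helix-loop-helix transcription factor, with an r of 0.97, Sostdc1, a secreted antagonist of BMP signals, with 0.96, and Spock2, an extracellular matrix proteoglycan, with 0.93. Ascl2 lay from -4.57 to -3.03 (median -3.48) in Roquin san/+ and from -7.02 to -3.24 (median -4.90) in wild-type. Its 3 lowest arrays were wild-type replicates G, C and F, the same 3 as for Il21. Sostdc1 lay from -5.40 to -3.45 in Roquin san/+ and from -9.01 to -2.27 in wild-type, again with the wider range in wild-type. The genes closest to Ifng were Bcl2a1d, an anti-apoptotic member of the Bcl2 family, Rela, a subunit of NF-κB, and Inppl1, a phosphoinositide phosphatase, with r of 0.95, 0.93 and 0.92. Those closest to Il4 were Ocrl, also a phosphoinositide phosphatase, Prrt1 and Erc1, with r of 0.88, 0.86 and 0.86. Those closest to Lif were Vpreb2, a part of the surrogate light chain of B-cell precursors, Prr3 and Gm11266, with r of 0.95, 0.93 and 0.93. These genes were picked as the highest of 15377 over only 12 arrays, and no test was made of them.

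**Figure D4:**
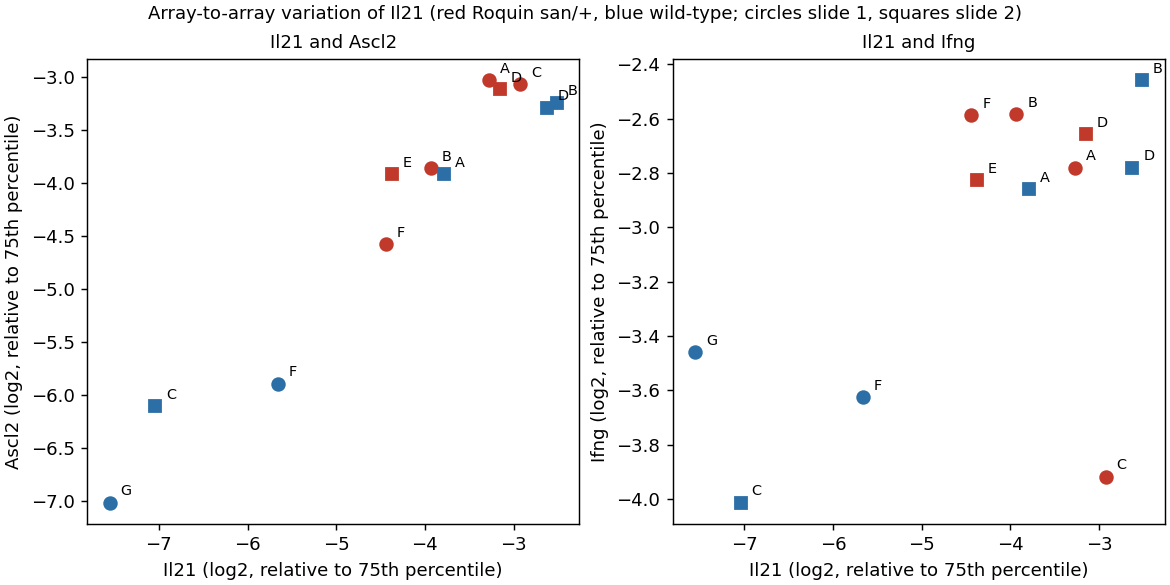
Level of Il21 (horizontal axis, log2 relative to the 75th percentile of the array) against that of Ascl2 (left) and Ifng (right) on the 12 correctly gridded arrays, with replicate letters, red for Roquin san/+, blue for wild-type, circles for slide 1 and squares for slide 2. Wild-type replicates C, F and G lie at the low end of both Il21 and Ascl2, and Roquin san/+ replicate C leaves the Ifng pattern, at -3.92 for Ifng with -2.92 for Il21.

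The receptors of these cytokines were mostly well detected, and 0 of them passed the adjusted test in either direction. Genes of this list and of the lists below may have passed the filter only through the genotype where they were higher. Which genes did so was not counted, so their differences and the counts above 0 are descriptions. Of 18 receptor genes 16 were tested, with 13 differences above 0 and a median of 0.24, beside 60.4% above 0 and a median of 0.07 for all tested probes. With arrays scaled to the 75th percentile over all probes, 10 of 16 were above 0, as were 38.0% of all tested probes. The highest were Il13ra1, a chain of the IL-13 receptor, at 1.25 (SE 0.50), and Csf2rb, the signalling chain shared by the receptors for Csf2, IL-3 and IL-5, at 1.17 (SE 0.59). The lowest were Il17ra, the IL-17 receptor, at -0.49 (SE 0.42), and Il6st, the gp130 chain through which Lif signals, at -0.16 (SE 0.31). All 4 had a limma adjusted p of at least 0.865. Il13ra1 and Csf2rb are also made by myeloid cells, and the summed level of the 9 myeloid markers ran from 2.25 to 6.49 (median 3.38) on the correctly gridded Roquin san/+ arrays and from 0.77 to 4.91 (median 1.91) on the wild-type ones. All 9 were well above background on all 12 arrays. Over the correctly gridded arrays the differences were 1.21 for Il13ra1 and 1.23 for Csf2rb, and without replicate F of the Roquin san/+ group, the array with the most myeloid signal, they were 0.78 and 0.74. The part of other cells in these differences was not tested further.

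Of 28 other cytokines and chemokines of T-cells, 20 were tested, 15 had a difference above 0 (60.4% of all tested probes did) and 0 passed in either direction, with a median of 0.35. With quantile normalization 11 of 20 were above 0, as were 40.0% of all tested probes. The chemokines Ccl4 and Ccl3, which attract leukocytes to inflamed sites, had the highest differences, at 1.86 (SE 0.74) and 1.76 (SE 0.77). Their levels on single arrays ran from -5.87 to -2.04 in Roquin san/+ and from -8.25 to -3.35 in wild-type for Ccl4, and from -6.86 to -2.24 and from -8.76 to -4.11 for Ccl3, overlapping in both cases. Ltb, the membrane-bound lymphotoxin chain, and Flt3l, a growth factor of dendritic cells, had the lowest, at -0.30 (SE 0.45) and -0.11 (SE 0.24). Over the correctly gridded arrays Ccl4 and Ccl3 both differed by 1.69, and by 1.30 and 1.19 without replicate F of the Roquin san/+ group, which had the highest myeloid and NK sums. Both chemokines are made by myeloid and NK cells as well, and the part of those cells was not tested further.

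All 25 transcription factors listed for cytokine genes were tested, 22 had a difference above 0 (60.4% of all tested probes did) and 0 passed in either direction, with a median of 0.36. With the 75th percentile over all probes 18 of 25 were above 0, beside 38.0% of all tested probes. Eomes, a T-box factor tied to Ifng, had the highest at 1.07 (SE 0.33), followed by Irf4, which acts with Batf at Il21 and other cytokine genes, at 0.96 (SE 0.30). Eomes lay from -3.93 to -1.62 on the correctly gridded Roquin san/+ arrays and from -4.65 to -3.42 on the wild-type ones, and Irf4 from -3.87 to -2.37 and from -4.84 to -3.14. The lowest were Stat5a, which carries the IL-2 signal, at -0.36 (SE 0.21), and Junb, an AP-1 subunit, at -0.15 (SE 0.21). Without replicate F of the Roquin san/+ group, over the correctly gridded arrays, the differences of Eomes and Irf4 were 0.95 and 0.66, against 1.20 and 0.85 with it. The NK sum was 1.06 on that array and ran from -2.39 to -1.39 on the remaining 5. On the correctly gridded wild-type arrays it ran from -1.76 to -1.12. Replicate F also had the highest B-cell sum, 4.60. The part of other cells in these differences was not tested.

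Of 12 regulators of cytokine mRNA stability 11 were tested, 8 had a difference above 0 (60.4% of all tested probes did) and 0 passed in either direction, with a median of 0.12. With the 75th percentile over all probes 4 of 11 were above 0, beside 38.0% of all tested probes. Most of these regulators and most of all tested probes thus lay below 0 under that scaling, where the median of all tested probes was -0.10. Zc3h12d and Zc3h12a, members of the Regnase family, of which Zc3h12a encodes Regnase-1, an endonuclease of inflammatory mRNAs, were highest at 0.49 (SE 0.35) and 0.47 (SE 0.22). Elavl1, which encodes the mRNA-stabilising protein HuR, was lowest at -0.19 (SE 0.16). Next was Rc3h1, the gene mutated in these mice, at -0.07 (SE 0.16; limma adjusted p = 0.962). A point mutation does not remove the transcript, so the Rc3h1 level does not check the genotype labels.

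**Figure D5:**
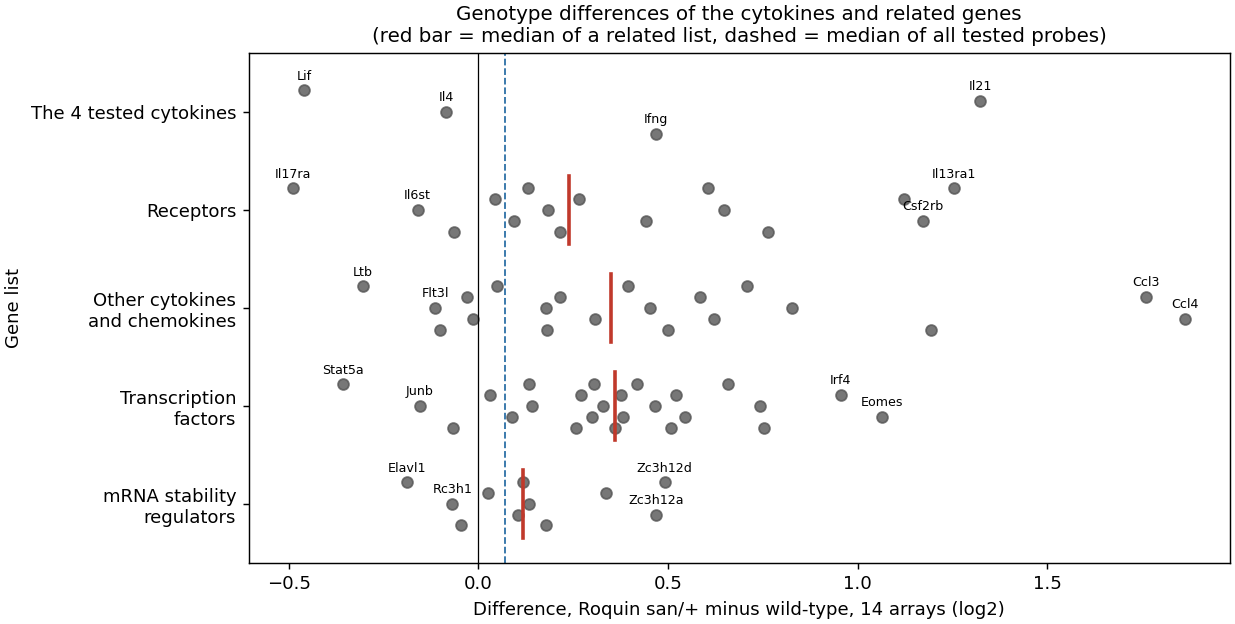
Differences between the genotypes over 14 arrays (horizontal axis, log2, Roquin san/+ minus wild-type) for the 4 tested cytokines and the tested genes of 4 related lists, 1 dot a gene, with the median of each related list in red and the median of all tested probes dashed. The list medians run from 0.12 to 0.36, beside 0.07 for all tested probes, and no gene passed the adjusted test.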

How the data were processed

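Total RNA of CD4+ T-cells was labelled with Cy3 and hybridised to one-colour Agilent arrays. The authors deposited spot intensities from Agilent Feature Extraction 10.5.1.1 (submitters' processing notes), background-subtracted in the processed signal, and a table of log2 values whose method is not given in the sources used here. The column medians of that table run from 6.20 to 6.23, and it served only as an alternative, with the same 2 arrays moved. The paper given with the series describes other samples, so the design follows the labels.

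The members and lists were chosen with earlier results of these data known. The log2 processed signal of each probe, after moving the spots of 2 displaced arrays by 2 rows, was reduced by the array's 75th percentile over 10345 probes well above background on all 14 arrays. Probes well above background on all 6 correctly gridded arrays of at least 1 genotype entered the fit by limma 3.58.1 (R 4.3.3; lmFit, eBayes, Benjamini-Hochberg, threshold 0.05), 7 against 7. This filter looks at the genotype, and genes of the lists were not sorted by the genotype through which they passed. Exact permutation and Fisher tests used Python 3.11.15 with scipy 1.17.1. Genes named were the 9 cytokines, the 2 highest and 2 lowest of each list, and the 3 genes most correlated with each tested cytokine. A gene is represented by its tested probe of highest mean. The test was checked on simulated data. Nothing states that each array is a separate animal, so p-values measure the spread between arrays. Precision is limited by how many arrays there were. Alternatives covered background correction, scaling, filter, slide, replicate letter, array weights, the deposited log2 values and left-out arrays.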

Additional observations from a re-analysis of the deposited data

Results flagged for a closer look

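Among the 22 groups of 6 correctly gridded arrays (11 cytokine probes, both genotypes), 3 had 1 array far from the rest by Dixon's criterion, where chance gives about 1 in 20 groups. All 3 were Roquin san/+ replicate C, the array with the lowest brightness. It was highest for the spliced Il2 probe, at -5.76 where its group's 5 others ran from -9.32 to -8.00. In intensity units it read 14.8 there, within its group's range of 7.64 to 28.6, so it was not the highest before scaling. Replicate C was also highest for Il17a, at -7.91 against -10.64 to -9.86. The Il17a probe was at the software's lowest value on 5 of the 6 arrays, replicate C among them, so that this gap is that of the array's scale. Replicate C was lowest for Ifng, at -3.92 against -2.83 to -2.58.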

How the results depend on the processing

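No setting gave a probe called by limma (0 in each of 32 alternatives for the whole table), and the adjusted p of the Il21 probe of both transcripts, Ifng and Il4 ran from 0.485 to 1.0. The Il21 probe of both transcripts kept its sign in 33 of 33 alternatives, from 0.15 to 3.41, and Ifng in 32 of 32, from 0.03 to 0.93. The Il21 probe of 1 transcript turned to -0.24 with quantile normalization, -0.29 on slide 2 alone and -0.062 with the authors' log2 values. Il4 turned to 0.14 with normexp background correction, 0.11 on slide 1 alone and, chosen after seeing the data, 0.11 with normexp on the 12 correctly gridded arrays. Lif ran from -1.42 with quantile normalization to 0.49, and turned to 0.046 with normexp, 0.21 with slide as a block, 0.49 on slide 2 alone and 0.054 with array weights, and, chosen after seeing the data and without both displaced arrays, to 0.42 with normexp, 0.25 with slide as a block and 0.023 without Roquin san/+ replicate C. The causes were not tested. Leaving out 1 array gave 0.84 to 1.69 for the Il21 probe of both transcripts, 0.15 to 0.72 for the other, 0.22 to 0.68 for Ifng, -0.23 to 0.023 for Il4 (above 0 without Roquin san/+ replicate B or F) and -0.81 to -0.21 for Lif. Of the 11 probes, 1 was well above background on all arrays with the flags of all 14, as were 10345 of all 56605 probes. With the laxer flag of the software 7 were above background, and 3 to 4 were well above it with 1 array left out. For that flag and for the left-out arrays the share over all probes was not computed, so nothing is read from these counts. With the replicate letter as a block 0 probes were called and Il21 differed by 1.32 (limma adjusted p = 0.857). Correlations of same-lettered deviations ran from -0.33 to 0.43, and whether the letters pair the arrays was not tested. Without the block 0 probes were called too. Scaling moved the median of all tested probes from 0.07 to 0.23 with normexp, -0.08 with quantile normalization and -0.10 with the 75th percentile over all probes, so list medians are to be read against it: over all probes they were 0.07 for receptors, 0.18 for other cytokines, 0.19 for transcription factors and -0.05 for stability regulators. Signal over background limited 5 of the 9 cytokines to counts of detection.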
